A study of Mus musculus with 6 samples.

Results

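Kinesins, dyneins, dynactin and myosins are the machines that move cargo along microtubules and actin filaments. The genes described here are those of the 53379 counted genes whose symbol marks a kinesin motor chain (Kif), the kinesin adaptor Kifap3, a kinesin light chain (Klc1 to Klc4), a cytoplasmic dynein subunit (Dync, Dynl), a dynactin subunit (Dctn1 to Dctn6) or a myosin heavy chain (Myo, Myh). The symbol rule took 114 genes, and 4 pseudogenes were left out, so that 110 genes remained, 109 of them protein coding and 1, Kif16bos, an antisense RNA. They comprised 83 heavy chains, which carry the motor domain, 13 light chains and 14 others. The others are the dynein intermediate and light intermediate chains, dynactin, Kifap3, Kif16bos, and Kif1bp, which binds kinesins but is not a motor subunit.

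All RNA came from Min6, a mouse insulinoma line that is used as a model of the pancreatic beta cell. All cells had been kept in 25 mM glucose with 500 µM palmitic acid for 30 h at passage 31, so no untreated cells enter the comparison. In 3 libraries the RNA was recovered with an antibody against hnRNPK (IP), and in 3 it was total RNA from the 10% input of the lysate. A control-antibody IP was not analysed here. The labels do not say whether the 3 libraries of each group were made from independent cultures, so the p-values cover only the variation seen among them, which may be technical. The RNA came from bulk cultures, in which fewer cells of a kind and less RNA per cell cannot be told apart.

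Kinesins mostly walk toward the plus ends of microtubules and cytoplasmic dynein walks toward the minus ends, with dynactin as its activator. Myosins pull on actin. Heavy chains hold the motor domain, and light, intermediate and light intermediate chains link it to cargo or hold the complex together. In beta cells, insulin granules are carried along microtubules by kinesin and pass through a cortical actin web where myosins act. hnRNPK binds C-rich stretches of single-stranded RNA through KH domains and acts in splicing, mRNA stability and translation.

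The libraries held 38764925 to 52735957 counts. A read was found for 87 to 95 of the motor genes in the IP libraries and for 98 to 100 in the total RNA libraries. Motor genes took 0.623% ± 0.0277 of the IP counts and 0.716% ± 0.0475 of the total RNA counts (SD, n = 3 each). The biological coefficient of variation, the spread between libraries beyond counting error, was 42.6% among the IP libraries and 12.1% among the total RNA libraries. Markers of beta cells summed to 21630 to 31119 CPM, counts scaled to library size, in total RNA. Markers of other islet cells summed to 133 to 167 CPM there, almost all from Gcg (mean 151 CPM). The defining exocrine genes Cpa1, Prss1 and Amy2a2 and the muscle factors Myog and Myod1 were at 0 in total RNA. Their lists were not at 0 as a whole. The exocrine and duct list summed to 0.434 to 0.631 CPM, and the skeletal and cardiac muscle list to 1.90 to 2.97 CPM, mostly Acta1.

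The RNA sequence elements shown next are C-rich stretches, because hnRNPK is known for binding such RNA and because the light chains of kinesin, which are close relatives, came out on opposite sides of the comparison. For each gene the window of 30 bases with the most C was taken from its longest 3′ UTR in the GENCODE M21 annotation of GRCm38, written 5′ to 3′ on the RNA strand as DNA letters. Capitals mark every run of 4 or more C.
Klc2, chr19:5107933-5107962, minus strand: cctCCCCCaCCCCgCCCCCaCCCCagCCCC
Klc1, chr12:111794338-111794367, plus strand: cctagccgcccgcccggtgcctCCCCCtgc
Klc4, chr17:46630963-46630992, minus strand: CCCCacagcccttacagcattCCCCatggc
Klc3, chr7:19394458-19394487, minus strand: cacctcccaggagccacaggcggtcaCCCC
Dynlrb1, chr2:155250089-155250118, plus strand: tcgctctgcccaCCCCacaaggagtgcctc
Dynll1, chr5:115297944-115297973, minus strand: cccaggcagccagcccacacttcactatgc
Kifc2, chr15:76667658-76667687, plus strand: cgcctccacccttccaCCCCCagctgagcc
Kifc1, chr17:33875792-33875821, minus strand: cggatccagagcctgattcccttgcaagcc
The Klc2 window holds 24 C among its 30 bases, and those of Klc1, Klc4 and Klc3 hold 18, 15 and 15. The median over all 13415 tested genes with an annotated 3′ UTR was 15, and 9.98% of them had a window with 20 or more C. The windows of the enriched Kifc2 and Dynlrb1 hold 18 and 14 C, and those of the depleted Dynll1 and Kifc1 hold 14 and 11. The windows of Dynll1 and Kifc1 hold no run of 4 C. Windows of further genes were taken but are not shown. Among them, those of the enriched Myo1d and the depleted Kif15 hold no such run. Those of the enriched Kif5a and Myo16 and of the depleted Dynll2 do. Over the whole 3′ UTR, CCCC was found 5 times in Dynll1 and 20 times in Myo1d, although their windows show none, and 0 times in Kifc1 and Kif15. Such a stretch is a description of the letters, not a binding site.

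Of the 110 motor genes, 87 had enough reads to be tested and 23 did not. A gene was tested when its counts reached about 10 in 3 libraries, whichever group these belonged to, so the counts below cover only the genes that passed. It was called enriched or depleted in the IP when edgeR's quasi-likelihood test gave a Benjamini-Hochberg adjusted p under 0.05 over all 16929 tested genes. Log2 fold changes are IP over total RNA, ± SE, and values per library are CPM scaled with the TMM factors of edgeR. Of the tested motor genes, 26 were enriched (29.9%, against 28.9% of all tested genes) and 38 were depleted (43.7%, against 33.6%). The remaining 23 were not called. The median log2 fold change was -0.28 for the motor genes and -0.07 for all tested genes. All 3 IP libraries lay above all 3 total RNA libraries for 27 motor genes (32.2% of all tested genes did so) and below them for 42 (39.3% of all tested genes). The groups overlapped for 18.

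How the libraries are scaled sets where 0 lies. With library totals alone in place of TMM factors, the median of all tested genes moved by -0.43, and 16 motor genes were enriched and 50 depleted. Among all called genes the enriched share then fell from 46.3% to 32.1%. An enriched or depleted gene is therefore one that stands above or below the bulk of the transcripts, and no absolute amount of bound RNA can be read from it.

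Heavy and light chains came out differently in their counts. Of the 62 tested heavy chains, 22 were enriched (35.5%, against 28.9% of all tested genes), 18 depleted (29%, against 33.6%) and 22 not called. Their median log2 fold change was 0.07, with a range of -1.78 to 2.11. That median changed sign when library totals alone set the scale (-0.37) and when an offset for gene length was fitted (-0.32). Of the 12 tested light chains, 10 were depleted (83.3%, against 33.6% of all tested genes) and 2 enriched (16.7%, against 28.9%). Their median was -1.47, with a range of -2.76 to 2.14. The light chain median stayed below 0 in both cases, at -1.90 and -1.17. No test was made of one class against the other. Among the depleted light chains, Dynlt1a, Dynlt1b, Dynlt1c and Dynlt1f are near-identical copies. They weigh as separate genes in the light chain counts and medians, here and below. Light chain genes are shorter, with a median of 3182 bases of exon against 7341 for heavy chains. The classes also differ in family. The tested heavy chains were 37 kinesin motor chains, 23 myosins and 2 dynein chains, and the light chains 8 dynein and 4 kinesin chains. Among heavy chains, both of dynein, 37.8% of the kinesin motor chains and 8.70% of the myosins were depleted. So were 7 of the 8 dynein and 3 of the 4 kinesin light chains. Whether family accounts for the difference was not tested.

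**Figure D1:**
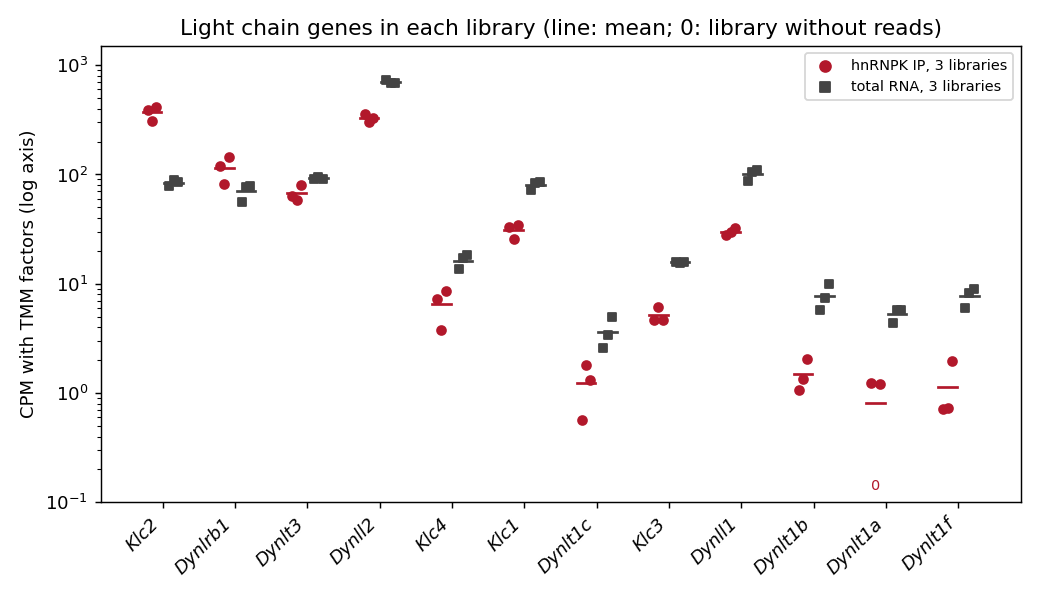
Level of each of the 12 tested light chain genes in the 6 libraries, in CPM with TMM factors on a log axis. Points are libraries and lines are the means of 3, and for Klc2 and Dynlrb1 every IP library lies above every total RNA library, while for the other 10 genes every IP library lies below.

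Kinesin light chains bind the tail of the kinesin-1 heavy chains Kif5a, Kif5b and Kif5c and recruit cargo through their tetratricopeptide repeats. Klc2 (16 exons, chr19:5107746-5118560, minus strand) had 392, 310.2 and 413 CPM in the IP libraries and 78.7, 88.2 and 85.4 CPM in the total RNA libraries. The groups were far apart, at 372 ± 54.4 against 84.1 ± 4.87 CPM (SD, n = 3 each). Klc2 was enriched 4.42-fold, a log2 fold change of 2.14 ± 0.13 with an adjusted p of 4.73e-06 in edgeR, the highest log2 fold change among the tested motor genes. Of its exon bases, 10.6% overlap another annotated gene, and reads of the pair cannot be told apart without a known strand setting.

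The other 3 kinesin light chains were depleted. Klc1 had 32.7, 25.8 and 34.3 CPM in the IP and 72.4, 82.9 and 85.4 CPM in total RNA, which put it 2.59-fold lower in the IP (log2 fold change -1.37 ± 0.14, adjusted p 5.72e-05 in edgeR). Klc1 and Klc2 therefore stood at similar levels in total RNA and on opposite sides in the IP, with no overlap between the groups for either. Klc3 had 4.67, 6.13 and 4.66 CPM in the IP and 15.8, 15.5 and 15.9 CPM in total RNA, with a log2 fold change of -1.61 ± 0.18. Klc4 had 7.18, 3.76 and 8.51 CPM against 13.6, 17.1 and 18.2 CPM, a log2 fold change of -1.33 ± 0.30. In Klc3, 28.1% of the exon bases overlap Ercc2.

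Dynein light chains are small dimers that sit on the intermediate chains, and Dynll1 and Dynll2 are also hubs that bind many proteins outside dynein. Dynll2 had 355, 301 and 326 CPM in the IP and 734, 682 and 687 CPM in total RNA. Every IP library lay below every total RNA library, and the log2 fold change was -1.10 ± 0.09 (adjusted p 1.96e-05 in edgeR). Dynll1 had 27.8, 29.6 and 32.1 CPM in the IP and 86.3, 104 and 109.8 CPM in total RNA, 3.36-fold lower in the IP. Dynlt3, a Tctex-type chain, had 63.4, 58.1 and 80.4 CPM against 90.6, 95.2 and 91.2 CPM, a small depletion of -0.46 ± 0.13 on the log2 scale. The Dynlt3 call ended when IP library 1 was left out (-0.44) or any 1 of the total RNA libraries (-0.40 to -0.43), and its sign turned with the offset for gene length (0.03).

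The Tctex-type chain Dynlt1 exists as near-identical copies in the mouse genome, among which reads may be split or dropped. Dynlt1b had 1.06, 1.33 and 2.05 CPM in the IP and 5.80, 7.42 and 9.98 CPM in total RNA, a log2 fold change of -2.38 ± 0.35. Dynlt1f had 0.709, 0.728 and 1.95 CPM in the IP and 5.98, 8.31 and 8.91 CPM in total RNA, a log2 fold change of -2.76 ± 0.45. Both copies were low in every IP library, with no overlap between the groups. Dynlt1a had 1.24, 0 and 1.20 CPM against 4.40, 5.79 and 5.80 CPM, and Dynlt1a (-2.70) and Dynlt1c (-1.56) were depleted too. The Dynlt1a call ended without IP library 1 (-3.09) or without any 1 of the total RNA libraries (-2.60 to -2.79). The Dynlt1c call ended without total RNA library 2 (-1.57) or 3 (-1.24). Summed over the 4 copies, the level was 4.66 ± 1.61 CPM in the IP and 24.4 ± 5.46 CPM in total RNA, 5.25-fold lower in the IP. With the pseudogene Dynlt1-ps1 included, which took most of these reads, it was 21.3 ± 8.52 against 142 ± 25.2 CPM, 6.65-fold lower.

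Dynlrb1, a roadblock-type chain, was the dynein light chain on the other side. It had 118, 82.3 and 145 CPM in the IP libraries and 55.9, 76.2 and 78.5 CPM in the total RNA libraries. The lowest IP library was only a little above the highest total RNA library. The log2 fold change was 0.71 ± 0.22 (adjusted p 0.0211 in edgeR). The call ended without IP library 1 (0.68), IP library 3 (0.46) or total RNA library 1 (0.61), and with library totals alone (0.28). With the offset for gene length it was 1.80; Dynlrb1 is among the shortest motor genes, with 1009 bases of exon.

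**Figure D2:**
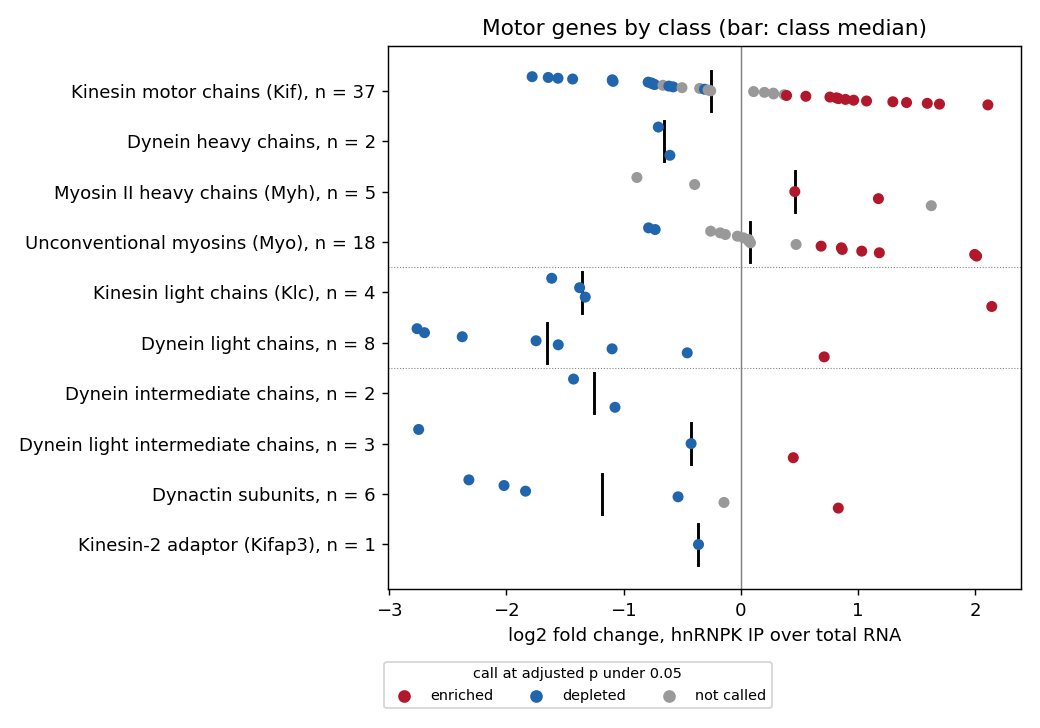
Log2 fold change, IP over total RNA, of the tested subunit genes by class, with red for enriched, blue for depleted and grey for not called, and a bar at each class median. Dotted lines separate heavy chains, light chains and the remaining subunits; kinesin motor chains span -1.78 to 2.11, while 7 of the 8 dynein light chains are blue.

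The remaining subunits of cytoplasmic dynein lay mostly on the depleted side as well. Both heavy chains were depleted, although their genes are among the longest motor genes. Dync1h1, the motor of cytoplasmic dynein 1, had 237, 232 and 189 CPM in the IP and 383, 311 and 305 CPM in total RNA, and its log2 fold change was -0.60 ± 0.13 (adjusted p 0.0038 in edgeR). Dync2h1, the dynein 2 motor of intraflagellar transport, had 14.5, 17.2 and 15.7 CPM against 29.8, 24.3 and 22.9 CPM. Its log2 fold change was -0.70 ± 0.15, again with no overlap between the groups.

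The intermediate chains are the scaffold to which the dynein light chains and dynactin bind. Dync1i2 had 31.2, 31.3 and 32.6 CPM in the IP and 68.5, 64.6 and 67.0 CPM in total RNA, a log2 fold change of -1.07 ± 0.09 (adjusted p 2.37e-05 in edgeR). Dync1i1, the chain best known from neurons, had 1.51, 1.46 and 2.94 CPM against 5.06, 5.47 and 5.41 CPM, a log2 fold change of -1.43 ± 0.34. Both were depleted, Dync1i1 from a level that was far lower.

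The light intermediate chains couple dynein to its cargo adaptors, and they split. Dync1li1 had 74.0, 87.9 and 64.7 CPM in the IP and 56.2, 55.3 and 54.4 CPM in total RNA, an enrichment of 0.45 ± 0.12 on the log2 scale. Its paralog Dync1li2 had 55.2, 69.4 and 44.9 CPM against 81.2, 72.2 and 73.8 CPM, a depletion of -0.42 ± 0.16. Both differences were small. The call of Dync1li1 ended with library totals alone (0.01), and the call of Dync1li2 ended without IP library 1 (-0.45) and without any 1 of the total RNA libraries (-0.33 to -0.42). Dync2li1, the light intermediate chain of dynein 2, had 1.68, 2.58 and 2.94 CPM against 15.3, 17.1 and 16.2 CPM, 6.72-fold lower in the IP (adjusted p 3.12e-05 in edgeR). Across the 13 tested Dync and Dynl genes other than the heavy chains, 11 were depleted (84.6%, against 33.6% of all tested genes) and 2 enriched (15.4%, against 28.9%). Their median was -1.43.

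Dynactin binds dynein, activates it and links it to cargo. Of the 6 genes Dctn1 to Dctn6, 4 were depleted (66.7%, against 33.6% of all tested genes) and 1 was enriched (16.7%, against 28.9%). The remaining 1 was not called, and their median was -1.19. Further dynactin subunits, counted below in the list of adaptors and regulators, were split. Actr1a (0.31), Actr1b (0.72) and Capzb (0.48) were enriched, Actr10 (-0.93) and Capza2 (-0.87) were depleted, and Capza1 (0.25) was not called. Dctn1, whose product p150Glued reaches the microtubule, had 140.0, 161 and 170.1 CPM in the IP and 232, 226 and 225 CPM in total RNA, a log2 fold change of -0.53 ± 0.09. Dctn2, which encodes the dynamitin of the shoulder, had 29.5, 28 and 36.1 CPM against 99, 118 and 118 CPM, a log2 fold change of -1.84 ± 0.13. Dctn3, the p24 subunit of the same shoulder, had 9.19, 5.43 and 12.6 CPM against 35.5, 49.3 and 51.7 CPM, a log2 fold change of -2.32 ± 0.30 (adjusted p 0.00027 in edgeR). The 3 genes of shoulder and projecting arm thus lay on the same side.

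The subunits of the pointed end of dynactin did not move together. Dctn4 (p62) had 129.6, 159 and 140.0 CPM in the IP and 85.7, 79.7 and 75.1 CPM in total RNA, an enrichment of 0.83 ± 0.11 on the log2 scale (adjusted p 0.000239 in edgeR). Dctn6 (p27) had 5.11, 1.33 and 4.96 CPM against 13.2, 15.6 and 17.6 CPM, a depletion of -2.02 ± 0.45. Dctn5 (p25) had 40.3, 27.5 and 44.0 CPM against 37.6, 44.4 and 41.6 CPM, with overlapping groups and a log2 fold change of -0.14 ± 0.18 that was not called. Dctn5 was called depleted with library totals alone (-0.57). Of the exon bases of Dctn6, 11.8% overlap another gene.

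Among the 37 tested kinesin motor chains, 13 were enriched (35.1%, against 28.9% of all tested genes), 14 depleted (37.8%, against 33.6%) and 10 not called. Their median was -0.26. On the scale of library totals alone, 7 were enriched and 19 depleted (median -0.69). Kinesin-1 is the main long-range motor of insulin granules and other vesicles. Its neuronal heavy chain Kif5a (chr10:127225696-127263348, minus strand) had 50.7, 59.2 and 57.6 CPM in the IP and 20.9, 24.8 and 22.4 CPM in total RNA. It was enriched 2.46-fold (log2 fold change 1.30 ± 0.12, adjusted p 3.37e-05 in edgeR). Kif5b, the ubiquitous heavy chain, had 464, 562 and 382 CPM against 474, 342 and 344 CPM. Kif5c, the third heavy chain, had 164, 205 and 151 CPM against 165, 135 and 129 CPM. The groups of both overlapped, their log2 fold changes were 0.28 ± 0.18 and 0.28 ± 0.15, and neither was called. Without total RNA library 1, both were called enriched (0.49 for Kif5b and 0.43 for Kif5c). Scaled by library totals alone, both lay below 0 (-0.16 each), and with the length offset Kif5b lay at -0.065 and Kif5c at 0.011, none of them called. The mRNAs of kinesin-1 therefore ranged from the depleted light chains Klc1, Klc3 and Klc4 to an enriched Klc2 and Kif5a, with the most abundant heavy chain between them.

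Kinesin-3 motors carry dense-core granules and synaptic vesicle precursors. Kif1a had 346, 336 and 316 CPM in the IP and 186, 174 and 176 CPM in total RNA, an enrichment of 0.90 ± 0.08 on the log2 scale (adjusted p 3.28e-05 in edgeR). Kif1b, which also serves mitochondria through one of its isoforms, had 292, 342 and 236 CPM against 191, 148 and 148 CPM, an enrichment of 0.84 ± 0.16. In both genes every IP library lay above every total RNA library, but the Kif1b call ended with the length offset (0.06) and with library totals alone (0.40). Of the other kinesin-3 genes, Kif13b was enriched (0.82), though not with library totals alone (0.38) or the length offset (0.18), and Kif13a was depleted (-0.58). Kif1c (0.11) and Kif16b (0.20) were not called, and Kif1c was called depleted with library totals alone (-0.32).

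Kinesin-2 is a pair of unlike heavy chains, Kif3a with Kif3b or Kif3c, held by the adaptor Kifap3, and it drives transport in cilia and in the cytoplasm. Kif3a had 69.9, 78.1 and 47.4 CPM in the IP and 45.3, 32.7 and 37.1 CPM in total RNA, and Kif3a was enriched by 0.76 ± 0.20 on the log2 scale. Kif3b had 73.8, 73.3 and 70.5 CPM against 53.3, 58.7 and 53.8 CPM, an enrichment of 0.39 ± 0.09. Kif3c had 26.1, 32.2 and 29.2 CPM against 34.9, 34.9 and 34.6 CPM, with a log2 fold change of -0.26 ± 0.12 that was not called, and 40.7% of its exon bases overlap another gene. With library totals alone the Kif3a call ended (0.32), Kif3b lay at -0.04 and Kif3c was called depleted (-0.69), and Kif3c was also called depleted without IP library 2 (-0.33) and with the offset for gene length (-0.55). Kifap3 had 30.7, 37.2 and 32.4 CPM against 48.1, 42.4 and 38.9 CPM, a depletion of -0.37 ± 0.13. That call ended without IP library 1 (-0.35), without any 1 of the total RNA libraries (-0.25 to -0.40) and with the length offset (-0.22). Kif17, the homodimeric kinesin-2, was enriched (1.08), though not with library totals alone (0.64).

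The highest and lowest kinesin motor chains both belong to kinesin-14 family genes, whose motors walk toward the minus end. Kifc2 (chr15:76659858-76668196, plus strand), a kinesin known from neurons, had 24.4, 32.7 and 29.9 CPM in the IP and 5.85, 6.12 and 8.17 CPM in total RNA. It was enriched 4.32-fold (log2 fold change 2.11 ± 0.19, adjusted p 3.86e-05 in edgeR). Kifc1 (chr17:33875659-33890661, minus strand), which bundles microtubules at the spindle poles, had 26.4, 15.6 and 30.3 CPM against 79.4, 85.4 and 83.7 CPM. Its log2 fold change was -1.78 ± 0.22 (adjusted p 0.000218 in edgeR). The near-identical Kifc5b had 11, 11.6 and 8.93 CPM against 32.0, 34.2 and 32.4 CPM, and the pair summed to 34.6 ± 6.45 against 116 ± 4.11 CPM, 3.34-fold lower in the IP. The groups of Kifc2 and of the Kifc1 pair did not overlap. The third member, Kifc3, was not called (-0.28), but was called depleted without IP library 2 (-0.55) and with library totals alone (-0.71), and 27.5% of its exon bases overlap another gene.

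Kinesins of the mitotic spindle and midbody lay mostly below 0. Of 13 such genes, 11 were depleted (84.6%, against 33.6% of all tested genes) and 2 enriched (15.4%, against 28.9%), with a median of -1.09. The group was formed from textbook roles after the values had been seen, so its counts are no independent support. The near-identical Kifc1 and Kifc5b count separately in it. Kif2a, a paralog of its member Kif2c, was left out of it and was enriched (0.56). The depleted genes were Kifc1, Kifc5b, the chromokinesins Kif22 (-1.56) and Kif4 (-0.76), and the spindle motors Kif11 (-0.61) and Kif15 (-1.43). To these came Kif18a (-1.10) and Kif2c (-1.09), which shorten microtubules, and Kif20a (-0.73), Kif20b (-1.09) and Kif23 (-0.79) of the midzone. Of the exon bases of Kif4 and Kif20a, 15.1% and 29.3% overlap another gene. The enriched ones were Kif14, a midbody kinesin, and Kif18b (0.96), which acts on astral microtubules. Kif14 had 92.7, 109.6 and 83.2 CPM in the IP and 32.7, 26.3 and 29 CPM in total RNA, 3.24-fold higher in the IP (adjusted p 2.09e-05 in edgeR). The remaining 24 tested kinesin motor chains had 11 enriched (45.8%) and 3 depleted (12.5%, namely Kif12, Kif13a and Kif19a), with a median of 0.33. The balance reversed on the scale of library totals alone, with 5 enriched and 8 depleted (median -0.11), and it was 8 and 4 with the length offset. Among them Kif21b (1.59), Kif24 (1.42) and Kif2a (0.56) were enriched, the last of these not with library totals alone (0.12). Of the exon bases of Kif2a, 19.2% overlap another gene. The enriched Kif21b lost its call with the length offset (0.99). Kif12, a kinesin of epithelial tissues, was depleted in every alternative (-0.75). Not called were Kif7 (-0.66), Kif27 (-0.50), Kif21a (-0.35), Kif16b (0.20) and Kif9 (0.37), of which Kif21a was called depleted without IP library 2 (-0.57), with library totals alone (-0.79) and with the length offset (-0.56), and Kif27 with library totals alone (-0.93). Kif19a (-0.31) lost its call without IP library 1 (-0.33), without any 1 of the total RNA libraries (-0.25 to -0.29) and with the length offset (-0.18). Kif1bp, which binds and restrains several kinesins, had 32.0, 27.6 and 40.6 CPM in the IP and 44.7, 50.1 and 49.8 CPM in total RNA, a depletion of -0.53 ± 0.15. The Kif1bp call ended without IP library 1 (-0.52) and without total RNA library 2 or 3 (-0.47 in each case).

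Myosins were seldom depleted. Of the 23 tested myosin heavy chains, 9 were enriched (39.1%, against 28.9% of all tested genes), 2 depleted (8.70%, against 33.6%) and 12 not called. Their median was 0.08. With the offset for gene length the median was -0.30, with 7 enriched and 7 depleted, and with library totals alone it was -0.35, with 7 enriched and 8 depleted. Nonmuscle myosin II contracts the cortical actin. Myh9 (41 exons in its longest transcript, chr15:77760587-77842175, minus strand) had 885, 938 and 761 CPM in the IP and 446, 346 and 351 CPM in total RNA. Means were 861 ± 91.0 and 381 ± 55.9 CPM (SD, n = 3 each), an enrichment of 1.18 ± 0.13 on the log2 scale (adjusted p 9.8e-05 in edgeR). Myh10 had 122, 126 and 96.7 CPM against 92.0, 79.2 and 79.0 CPM, a log2 fold change of 0.46 ± 0.13. Myh14 had 31.4, 19.4 and 22.0 CPM against 37.3, 28.4 and 29.8 CPM, with overlapping groups and a log2 fold change of -0.39 ± 0.20 that was not called. The Myh10 call ended without IP library 1 (0.37), with library totals alone (0.03) and with the length offset (-0.05), while Myh14 was called depleted without IP library 1 (-0.65), with library totals alone (-0.83) and with the length offset (-0.67).

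Of 11 muscle myosin heavy chain genes, 2 had enough reads to be tested and neither was called. Myh11, the smooth muscle heavy chain, had 1.95, 3.79 and 0.549 CPM in the IP and 0.626, 0.891 and 0.509 CPM in total RNA, with a log2 fold change of 1.63 ± 0.70. It was called enriched without IP library 3 (2.01) and by DESeq2 (1.67). The 4 smooth muscle markers summed to 18.1 to 34.0 CPM in the IP and 5.99 to 8.22 CPM in total RNA, almost all from Mylk, while Acta2, Tagln and Cnn1 each had a mean under 1 CPM in both groups. Myh7b had 0.650, 2.49 and 2.34 CPM against 2.91, 3.15 and 4.09 CPM, a log2 fold change of -0.89 ± 0.50, and was called depleted with library totals alone (-1.32).

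Unconventional myosins tether and move vesicles on actin. Of the 18 tested, 7 were enriched (38.9%, against 28.9% of all tested genes), 2 depleted (11.1%, against 33.6%) and 9 not called. In both the scaling by library totals alone and the length offset, 6 were enriched and 6 depleted (medians -0.36 and -0.33). Myo5a, the motor that carries secretory granules through the cortex, had 564, 724 and 542 CPM in the IP and 324, 237 and 244 CPM in total RNA. The groups did not overlap, and the log2 fold change was 1.18 ± 0.16 (adjusted p 0.000323 in edgeR). Its relative Myo5b was not called (0.07). Myo6, which walks toward the minus end of actin, had 95.0, 106 and 81.5 CPM against 54.0, 50.9 and 50.7 CPM, an enrichment of 0.86 ± 0.11. Myo9a, a myosin with a RhoGAP domain, was enriched (0.87, but not with the length offset, 0.23), while its paralog Myo9b had 42.9, 49.0 and 47.8 CPM against 52.9, 54.7 and 50.0 CPM and was not called (-0.17 ± 0.10). Myo9b was called depleted with library totals alone (-0.61) and with the length offset (-0.48).

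Class I myosins are single-headed motors that link membranes to actin. Of the 5 tested, 3 were enriched (60%, against 28.9% of all tested genes). Myo1a (0.47) was not called. Myo1d (chr11:80482126-80780025, minus strand) had 236, 235 and 224 CPM in the IP and 60.5, 55.3 and 58.1 CPM in total RNA, 4.00-fold higher in the IP (log2 fold change 2.00 ± 0.08, adjusted p 1.56e-06 in edgeR). Its 3 IP libraries lay close together and far above total RNA. Myo1c (1.03) and Myo1e (0.69) were also enriched, the latter not with library totals alone (0.25).

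Myo16, a myosin with ankyrin repeats described in the brain, had 27.6, 31.6 and 32.0 CPM in the IP and 7.29, 8.48 and 6.78 CPM in total RNA. It was enriched 4.04-fold (adjusted p 1.35e-05 in edgeR), with no overlap between the groups. The 2 depleted unconventional myosins are known from inner ear and muscle. Myo7a had 20.8, 13.6 and 15.4 CPM against 29.7, 26.8 and 26.3 CPM, a log2 fold change of -0.73 ± 0.18. Myo18b had 3.87, 4.19 and 3.47 CPM against 7.16, 6.03 and 6.67 CPM, a log2 fold change of -0.79 ± 0.21. The Myo18b call ended without total RNA library 1 (-0.69) or 3 (-0.75). The filopodial motor Myo10 (0.02), the mitochondrial motor Myo19 (-0.03), Myo7b (-0.13), Myo15b (0.07) and Myo18a (0.08) were not called. Myo10 stood out only in IP library 2, and without that library it was called depleted (-0.40). Myo15b and Myo18a were called depleted with library totals alone (-0.36 and -0.35) and with the length offset (-0.40 and -0.64).

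Per kb of exon, the scale on which genes of different length can be compared, Dynll2 stood highest in total RNA, at 256 ± 10.5 CPM per kb (SD, n = 3). Dynlrb1 followed at 69.6 ± 12.3 CPM per kb. Kif5b (48.5 ± 9.45), Dctn3 (43.7 ± 8.40), Dynlt3 (35.9 ± 0.970) and Dctn1 (35.0 ± 0.557 CPM per kb) came next. Kif5b and Dctn3, and Dynlt3 and Dctn1, do not differ beyond their spread. In the IP, Dynll2 (120 ± 9.81 CPM per kb) and Dynlrb1 (114 ± 31 CPM per kb) were within their spread, and Klc2 was the third motor gene at 89.9 ± 13.1 CPM per kb. In total RNA Klc2 had rank 15, at 20.3 ± 1.18 CPM per kb. Dynll2 was thus depleted and still among the highest motor genes of the IP. With the longest transcript as the length in place of all exon bases, Dynlrb1 (146 CPM per kb) lay above Dynll2 (132 CPM per kb) in the IP. Klc2 (117 CPM per kb) kept the third place there, but hardly above Myh9 (116 CPM per kb). In total RNA, Dynll2, Dynlrb1 and Kif5b then kept the first 3 places, Dctn1 (52.7 CPM per kb) and Myh9 (51.3 CPM per kb) followed, and Dctn3 and Dynlt3 had ranks 6 and 9.

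**Figure D3:**
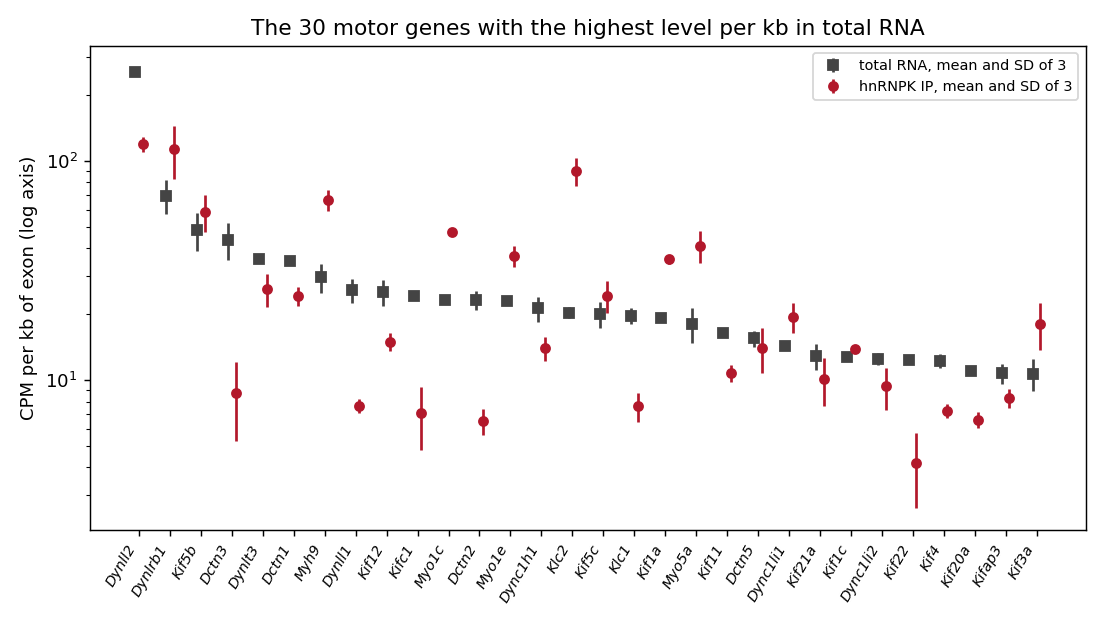
Level per kb of exon (CPM per kb, log axis) of the 30 motor genes with the highest level in total RNA, with mean and SD of 3 total RNA libraries in black and of 3 IP libraries in red. Dynll2 leads in total RNA and lies within the spread of Dynlrb1 in the IP, Dctn3 stands at 43.7 CPM per kb in total RNA and 8.72 in the IP, and Klc2 at 20.3 and 89.9.

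Length moved with the IP ratio over all genes, so the classes were also set beside genes of like length. The tested genes were ordered by exon length and divided into 4 bins of equal size. In the bin of the shortest genes (27 to 2055 bases), 12.7% were enriched, 41.1% depleted, and the median log2 fold change was -0.87. In the bin of the longest genes (6157 to 123179 bases), 47.3% were enriched, 22.3% depleted, and the median was 0.43. Of the heavy chains, 43 lay in that bin, where 16 were enriched and 10 depleted (median 0.08). No light chain lay there. The bin of the shortest genes held 2 light chains, the depleted Dynlt1b and the enriched Dynlrb1. In the second bin (2056 to 3754 bases), 21.6% of all genes were enriched, 38.5% depleted, and the median was -0.33. All 5 light chains there were depleted (median -1.33), and of the 6 heavy chains 2 were enriched and 3 depleted (median -0.14). In the third bin (3755 to 6153 bases), 34.1% of all genes were enriched, 32.4% depleted, and the median was 0.03. There the 5 light chains had 4 depleted and 1 enriched, with a median of -1.56, and the 13 heavy chains had 5 depleted and 4 enriched, with a median of -0.31.

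**Figure D4:**
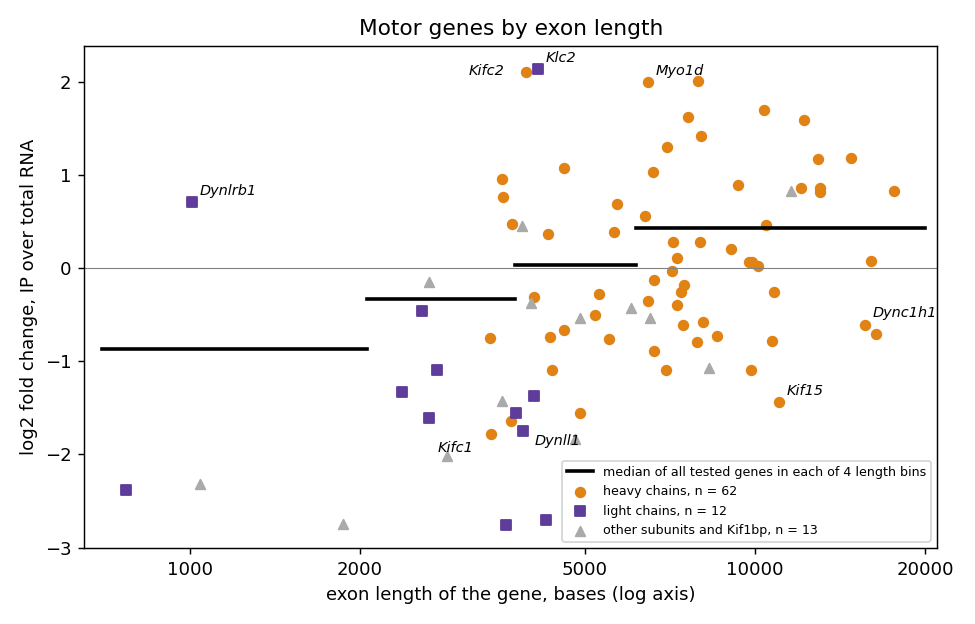
Log2 fold change, IP over total RNA, of the tested motor genes against exon length on a log axis, with black bars at the median of all tested genes in each of 4 length bins. Light chains (squares) lie in the 3 bins of shorter genes, 10 of 12 of them below 0, while heavy chains (circles) spread from -1.78 to 2.11.

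Spearman's rho between the log2 fold change and exon length was 0.42 over the 87 motor genes and 0.19 over the 62 heavy chains, against 0.29 over 16908 tested genes. Length of the 3′ UTR gave 0.53 over the motor genes, 0.63 over the heavy chains and 0.50 over 13415 genes, and with the offset for gene length 0.44, 0.50 and 0.34. These correlations are across genes that share the same 6 libraries and are given as a description.

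The tetramer CCCC was counted on the RNA strand of the longest annotated 3′ UTR, overlapping matches included. At least 1 match was found in the 3′ UTR of 81.6% of the tested motor genes and of 82.7% of all tested genes with an annotated 3′ UTR. Cut into stretches of 30 bases, 8.99% of those of motor genes and 7.92% of those of all genes held a match. Klc2 had 18 matches in 859 bases, 21 per kb, Kifc2 had 24.4 per kb, and Dynlrb1 had 28.8 per kb, the highest of the tested motor genes. Klc4 (15 per kb), Klc3 (9.80) and Klc1 (6.93) had fewer, and all 3 were depleted. Kifc1, Kif15 and Dync2li1 had none. The transcript forms used in Min6 were not measured.

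Over the 61 heavy chains with a 3′ UTR of at least 100 bases, rho between CCCC density and log2 fold change was 0.43. Over the 86 motor genes with such a 3′ UTR it was 0.26, and over 12983 tested genes 0.31. In the third of all genes with the fewest CCCC (up to 2.00 per kb), 17.0% were enriched and 50.3% depleted, and the 29 motor genes there had 4 enriched and 15 depleted. In the third with the most (from 5.30 per kb), 44.2% were enriched and 25.2% depleted, and the 30 motor genes there had 12 enriched and 10 depleted. CCCC-rich members were found on both sides. Myo15b, with a density near that of Kifc2, had a log2 fold change of 0.07 and was not called, and Dctn3 and Klc4 were depleted.

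**Figure D5:**
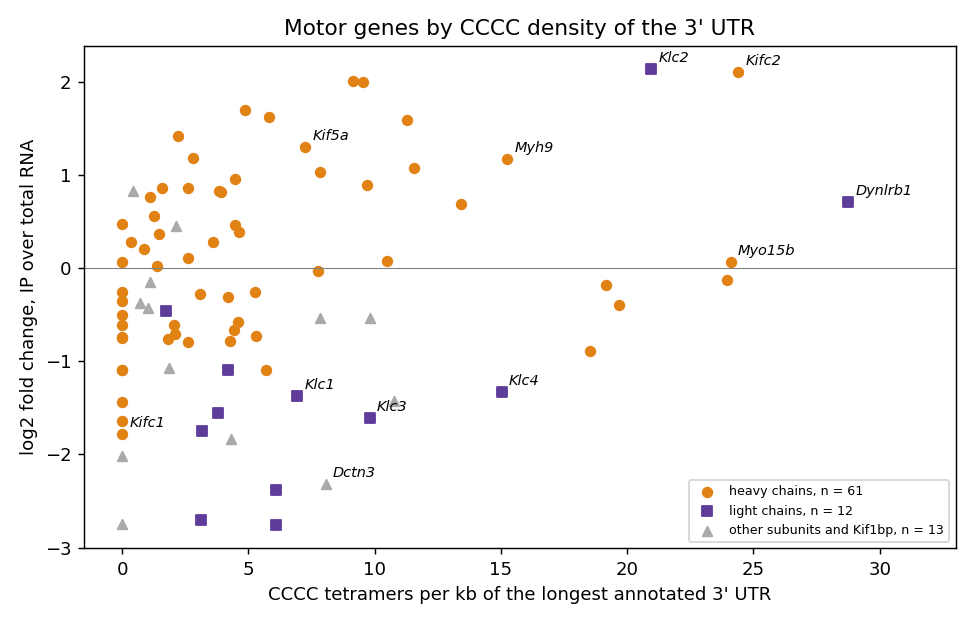
Log2 fold change, IP over total RNA, of the tested motor genes against the number of CCCC tetramers per kb of the longest annotated 3′ UTR. Klc2, Kifc2 and Dynlrb1 lie at the upper right, genes without a match lie mostly below 0, and Klc4 and Dctn3 are CCCC-containing genes below 0.

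Partners of the motors, taken from lists of textbook members, were split as well. Of 17 tested genes for myosin light chains and their regulators (22 listed), 9 were enriched (52.9%, against 28.9% of all tested genes) and 7 depleted (41.2%, against 33.6%). Their median was 0.26 and turned to -0.17 with library totals alone and to -0.03 with the length offset. The smooth muscle light chain kinase Mylk (1.81 ± 0.28) and calmodulin gene Calm3 (1.56 ± 0.12) were the highest, and the light chains Myl6 (-2.45 ± 0.24) and Myl12a (-2.11 ± 0.17) the lowest. Of 47 tested cargo adaptors and motor regulators (48 listed), 19 were enriched (40.4%, against 28.9% of all tested genes) and 17 depleted (36.2%, against 33.6%), and the median was -0.05. These counts were 11 and 24 with library totals alone, and with the length offset 15 and 21. The list also holds dynactin subunits and the dynein 2 intermediate chains Wdr34 (-2.05) and Wdr60 (-1.70), the latter 2 both depleted. The lysosomal GTPase Arl8a (1.92 ± 0.11), which recruits kinesin, and Plekhm1 (1.71 ± 0.09), which binds late endosomes, were the highest. Nudc (-2.47 ± 0.21), a dynein regulator, and Spdl1 (-2.16 ± 0.27), its adaptor at kinetochores, were the lowest. Rab27a (1.40 ± 0.13) and Mlph (1.18 ± 0.12), the pair that ties Myo5a to its granule, were picked out after their values were seen and were enriched like Myo5a. Other genes of the list tied to Rab27a were split. Myrip was enriched (0.82 ± 0.27), while Sytl4 (-0.68 ± 0.10) and Madd (-0.66 ± 0.10) were depleted.

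For the tracks themselves, tubulins, actins and microtubule-associated proteins, 27 genes were tested (28 listed). Of these, 10 were enriched (37.0%, against 28.9% of all tested genes) and 12 depleted (44.4%, against 33.6%). The median was -0.21. It became 0.02 with the length offset (11 enriched, 10 depleted) and -0.64 with library totals alone (10 enriched, 15 depleted). The neuronal microtubule protein Dcx had 1084 ± 243 CPM in the IP and 152 ± 13.8 CPM in total RNA, a log2 fold change of 2.83 ± 0.17 (adjusted p 5.07e-06 in edgeR). Tubb4a was enriched (2.47 ± 0.23), while other tubulins, among them Tubb2a (-2.01 ± 0.23) and Tuba4a (-1.99 ± 0.16), were depleted. Tubulin genes are close copies of each other, so their reads may be divided by the counting.

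The 23 genes with too few reads to be tested are 21 heavy chains, the light chain Dynlrb2 and the antisense RNA Kif16bos. For 6 of them, Kif2b, Myh1, Myh2, Myh8, Myh13 and Myo1f, no library held a read. The 3 IP libraries together held 43 reads of Kif26b, a kinesin-like signalling protein, and 42 of these were in IP library 1, while total RNA had none. Myo15, the inner ear myosin, had 25 IP reads, all in IP library 2, and 5 in total RNA. Myh7, the slow muscle heavy chain, had 34 IP reads, all in IP library 3, and 31 in total RNA spread over all 3 libraries. The other 14 had at most 16 reads in the IP and at most 42 in total RNA, summed over 3 libraries, and no statement on their enrichment can be made at this depth.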

How the data were processed

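RNA recovered with an antibody against hnRNPK and total RNA of Min6 cells were compared, 3 libraries each, grouped by sample title. The authors deposited raw read counts for each gene, 1 table a library. Reads were aligned to mm10 with TopHat2 and counted with featureCounts, per the submitters' processing notes, from accepted alignments, per the file headers. The sources used here do not give versions, annotation, strand setting or the handling of multiply aligned reads. Of counts from 1 to 20, the even share was 58.6% to 68.7% per library, so halved counts were tried.

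Gene IDs were matched without version to GENCODE M21 (GRCm38), which supplied symbols, exons and sequence, and 105 of 53379 IDs had no match. Counts were tested over all genes in R 4.3.3 with edgeR 4.0.16 (TMM, filterByExpr with a minimum count of 10 and total of 15, glmQLFit and glmQLFTest on the group, Benjamini-Hochberg threshold 0.05). The SE is the absolute log2 fold change divided by the root of F. CPM use TMM factors. The procedure was tested on simulated data with few changed genes, balanced in direction, and the same spread in both groups. The simulation therefore cannot show how scaling and test behave with the many called genes and unlike spread seen here. Exon length is the union of exons, and CCCC density needed at least 100 bases of 3′ UTR.

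Members, lists and alternatives were chosen with earlier results of these data known. Named with every library's value were a fixed set of 34 motor genes and, per class, up to 2 highest and 2 lowest log2 fold changes at 1 CPM or more; of other lists, up to 2 highest and 2 lowest called genes at 5 CPM or more. Spindle kinesins were grouped after values were seen. Alternatives were library totals alone, no filter, halved counts, a lowess length offset, a replicate block, DESeq2 1.42.0, leaving out each library and, for levels per kb, the longest transcript. Values of 1 member are not reported here.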

Additional observations from a re-analysis of the deposited data

How the results depend on the processing

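Of the 38 depleted motor genes, 30 kept direction and call under all 12 alternatives, and of the 26 enriched ones 14 did, among them Klc2. Scaling mattered most. With library totals alone, 16 motor genes were enriched (median -0.71), as were 14 heavy chains with 29 depleted (median -0.37) and 1 light chain (median -1.90), and the median of all tested genes was -0.51. Enriched then were 5 myosin light chain and regulator genes (median -0.17) and 11 adaptors (median -0.49), and the tubulin and actin list had a median of -0.64. With the offset for gene length, medians were 0.050 for all tested genes, -0.48 for motor genes, -0.32 for heavy and -1.17 for light chains, -0.030 for myosin light chains and regulators, -0.25 for adaptors and 0.020 for tubulins and actins. Without a filter on low counts, the median of all genes was -0.22 and that of myosin light chains and regulators -0.046. DESeq2 gave a median of -0.028 for all genes, and 27 enriched and 38 depleted motor genes. With library totals alone, signs turned for Kif1c (-0.32), Kif3b (-0.042), Myo15b (-0.36) and Myo18a (-0.35), and, called neither before nor after, for Kif5b (-0.16), Kif5c (-0.16), Kif16b (-0.23), Kif9 (-0.060), Myo10 (-0.42) and Myo5b (-0.38). With the length offset they turned for Dynlt3 (0.031), Myh10 (-0.053), Myo15b (-0.40) and Myo18a (-0.64), and, called neither before nor after, for Kif1c (-0.17), Kif5b (-0.065), Kif16b (-0.23), Dctn5 (0.31), Myo10 (-0.49) and Myo5b (-0.44). Myo10 was not called (0.02), ranged from -0.40 to 0.16 when 1 library was left out, and was called depleted without IP library 2 (-0.40). The cause was not tested.

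Leaving out 1 library at a time, the median of all tested genes ranged from -0.15 to 0.0094, the enriched light chains from 1 to 2, and the median of myosin light chains and regulators from -0.000552 to 0.51.

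Libraries with the same number did not deviate together (Pearson's r across genes 0.00087, -0.071 and 0.120), so the numbers were not taken as a pairing. With the replicate number as a block, 26 motor genes were enriched and 35 depleted, against 26 and 38 without it, and the median of all tested genes was -0.17. With the block, Dynlt1a, Dync1li2, Kifap3 and Kif19a were no longer called and Myh14 was called depleted (-0.41). The IP libraries spread more than the total RNA libraries, which limits small differences.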
